A study of Mus musculus with 12 samples.

Results

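Metallothioneins and members of the zinc transporter families were followed in 6 spontaneous hepatocellular carcinomas (HCC) and 6 normal livers. They were represented by 8 genes, namely the metallothioneins Mt1 and Mt2, their transcriptional activator Mtf1, the importers Slc39a4, Slc39a8 and Slc39a14, and the exporters Slc30a1 and Slc30a10. Every probe set that names one of these genes was taken, which gave 19 of the 45101 probe sets on the array, and none of the 19 names a further gene. The HCC were tumours of untreated B6C3F1 mice aged 2 years, and the normal livers, the controls, came from untreated mice of the same cross and age. All tissue came from a bioassay of the National Toxicology Program, and each tissue was hybridised to 1 single-colour Affymetrix array. Neither sex nor batch is labelled, and the labels do not say whether a tumour and a normal liver came from the same animal, so the p-values measure the spread between these 12 tissues. In bulk tissue, fewer cells of a type and less RNA per cell cannot be told apart.

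Metallothioneins are small cysteine-rich proteins that bind zinc and copper, and in the liver they buffer and store these metals. The transcription factor MTF1 senses free zinc and switches on the metallothionein genes through short metal response elements in their promoters, and it also drives the zinc exporter gene Slc30a1. Proteins of the ZIP family (Slc39 genes) bring zinc, and in some cases manganese and iron, into the cytosol, while those of the ZnT family (Slc30 genes) move metal out of it. Inflammation and glucocorticoids raise hepatic metallothionein, and interleukin 6 raises the importer ZIP14, the product of Slc39a14.

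Promoters are shown for 4 of the genes whose values are described below, because MTF1 acts through sequence close to the start of its target genes. Each window holds 250 bases before and 50 after a start given by RefSeq (GRCm38.p6), and 6 of the 8 genes matched an entry. Capitals mark matches to the metal response element core, searched on both strands as TGCACNC or TGCGCNC.
Mt1, chr8:94178839-94179138, + strand: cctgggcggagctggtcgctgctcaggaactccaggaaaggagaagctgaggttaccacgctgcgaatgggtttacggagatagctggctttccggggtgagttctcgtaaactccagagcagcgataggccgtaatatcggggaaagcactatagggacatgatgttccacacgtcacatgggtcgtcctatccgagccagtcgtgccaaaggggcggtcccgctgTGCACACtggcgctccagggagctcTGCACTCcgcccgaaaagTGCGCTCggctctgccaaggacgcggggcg
Mt2, chr8:94172368-94172667, + strand: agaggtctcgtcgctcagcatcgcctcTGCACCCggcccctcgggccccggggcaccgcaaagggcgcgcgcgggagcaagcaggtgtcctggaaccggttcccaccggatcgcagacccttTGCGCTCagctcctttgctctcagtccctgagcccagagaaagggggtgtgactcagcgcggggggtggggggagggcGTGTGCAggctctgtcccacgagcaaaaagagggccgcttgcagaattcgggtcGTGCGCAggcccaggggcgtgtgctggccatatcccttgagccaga
Slc30a1, chr1:191906531-191906830, + strand: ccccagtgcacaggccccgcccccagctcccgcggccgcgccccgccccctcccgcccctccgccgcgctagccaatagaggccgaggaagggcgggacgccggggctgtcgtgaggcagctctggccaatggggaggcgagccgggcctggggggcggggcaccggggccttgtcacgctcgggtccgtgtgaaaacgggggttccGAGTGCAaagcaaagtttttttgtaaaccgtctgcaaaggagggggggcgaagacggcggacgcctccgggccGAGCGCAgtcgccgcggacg
Slc30a10, chr1:185454598-185454897, + strand: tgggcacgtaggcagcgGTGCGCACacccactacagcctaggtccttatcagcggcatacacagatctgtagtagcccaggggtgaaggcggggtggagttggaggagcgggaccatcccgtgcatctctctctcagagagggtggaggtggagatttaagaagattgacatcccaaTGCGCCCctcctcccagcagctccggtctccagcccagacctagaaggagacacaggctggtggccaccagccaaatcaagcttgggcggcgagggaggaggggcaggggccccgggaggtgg
The core was found 3 times in the window of Mt1, 4 times in that of Mt2, 2 times in that of Slc30a1 and 3 times in that of Slc30a10, where a pair of matches on opposite strands overlaps. The window of Mtf1 holds none, and the 2 windows of Slc39a8 hold 0 and 1. The 4 genes shown are thus those with at least 2 matches. Slc39a4 and Slc39a14 had no entry. Of 32851 such windows of all genes, 25.7% hold at least 1 match, 7.11% at least 2, 1.97% at least 3 and 0.517% at least 4. These matches describe letters only.

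Levels are given as log2(intensity + 16) after quantile normalization, so that a value of 4 is the floor. The arrays had medians of deposited intensity from 92.4 to 114.3, and an intensity under 16 was listed for 14.2% to 18.1% of the probe sets. The defining genes of hepatocytes were abundant in both groups, with a mean level of 8 markers between 14.86 and 15.48 in HCC and between 15.42 and 15.50 in normal liver, and none of the 8 passed the test (limma, 2 of them under an unadjusted p of 0.05). Of 42 measured markers of other cell types, 2 rose and 4 fell, each by its brightest probe set. Of all 18193 genes so represented, 10.8% passed the test. The falls, from -2.52 to -1.11, were Clec4f of Kupffer cells, Stab2 and Clec4g of endothelium and Lrat of stellate cells. The rises were the erythroid Slc4a1 and the intestinal Vil1. The tumour HCC 6 stood apart in its markers of stellate cells and fibroblasts, at a mean level of 11.59, against 6.67 to 8.89 in the other HCC and 8.21 to 9.22 in normal liver. HCC 1, HCC 4, normal 1 and normal 3 lacked signal of the genes on the Y chromosome, with a mean level of Uty, Kdm5d and Eif2s3y from 4.17 to 4.85, while the other 8 arrays lay between 8.96 and 9.77. Y-linked signal was thus present on the arrays of 4 HCC and 4 normal livers and absent from those of 2 HCC and 2 normal livers. Xist, the transcript of the inactive X chromosome in females, lay between 11.79 and 12.70 on the arrays without Y-linked signal. On the other 8 arrays it lay between 5.12 and 7.56. The splits by Y-linked signal below therefore divide the arrays in the same way as Xist does.

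Of the 19 probe sets, 2 rose and 2 fell in HCC at an adjusted p under 0.05 (limma, Benjamini-Hochberg over all 45037 probe sets tested), and 15 did not pass. That is 21.1% of the 19, against 8.33% of all probe sets tested, of which 4.38% rose and 3.95% fell. Brighter probe sets passed more often. When only the 22834 probe sets with a mean intensity of at least 100 were tested, 2602 rose and 2630 fell. Of the 19, 16 met that filter, and of these 3 rose, with Mt2 added, and 2 fell. The importer gene Slc39a4 rose 3.53-fold and the exporter gene Slc30a1 1.73-fold by 1 of its 2 probe sets. The exporter gene Slc30a10 fell in both of its probe sets, to 0.296 and 0.259 of the level in normal liver. In these 4 probe sets the 6 HCC and 6 normal livers did not overlap, which was so for 6.49% of all probe sets (3.41% with HCC higher and 3.08% with HCC lower). The median difference over the 19 was 0.09 on the log2 scale, against -0.02 over all probe sets, and the median size of the difference was 0.35 against 0.31.

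**Figure D1:**
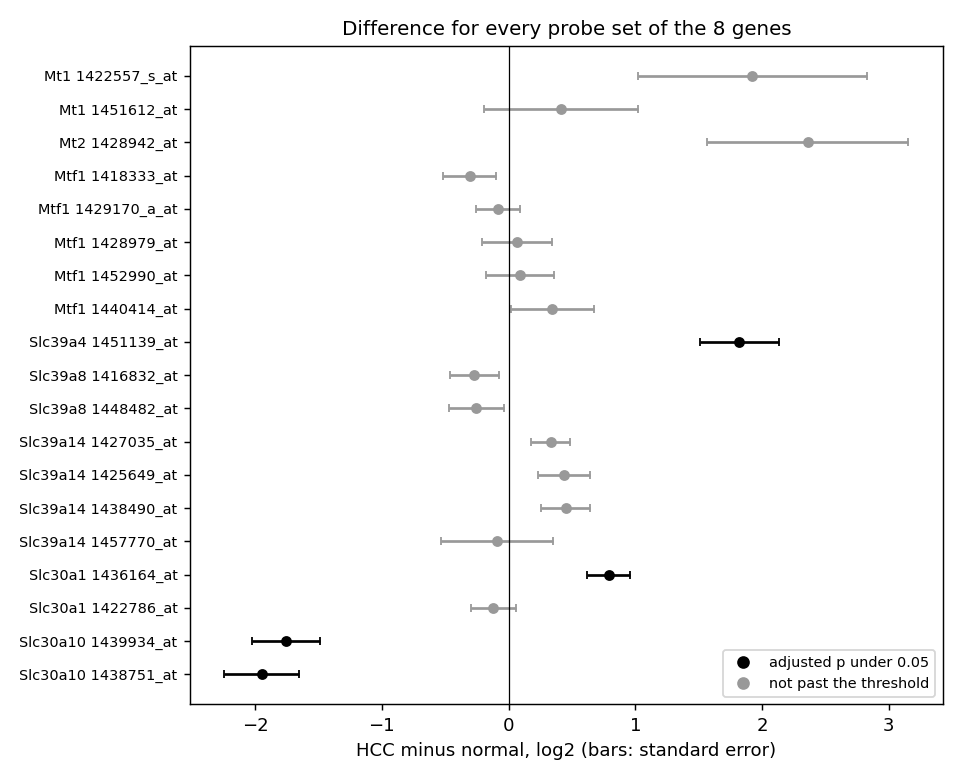
Difference between HCC and normal liver for each of the 19 probe sets, on the log2 scale, with the standard error as bars. The 4 black points, 1 probe set each of Slc39a4 and Slc30a1 and both of Slc30a10, passed the test, while Mt1 and Mt2 lie far from 0 with wide bars.

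The metallothioneins were the most variable of the 8 genes in both groups, and neither passed the test. Mt1 (probe set 1422557_s_at) had log2 levels of 12.50, 10.89, 15.04, 13.91, 15.09 and 13.43 in HCC 1 to HCC 6. In normal 1 to normal 6 it was at 14.79, 12.40, 12.01, 9.81, 9.81 and 10.49. Of the normal livers only normal 1 reached the level of the high tumours, and HCC 2 lay below 3 of the normal livers, so the groups overlapped. The mean was 13.48 ± 1.60 in the 6 HCC and 11.55 ± 1.93 in the 6 normal livers (SD), a difference of 1.92 ± 0.90 (SE, limma adjusted p = 0.224). In deposited intensity Mt1 ran from 831.3 to 37300 over the 12 arrays.

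Mt2 (1428942_at), which codes for the second hepatic metallothionein, followed Mt1 closely. Its levels in HCC 1 to HCC 6 were 10.81, 9.58, 13.40, 12.51, 14.19 and 11.999. Those in normal 1 to normal 6 were 12.11, 10.19, 9.98, 8.66, 8.15 and 9.24. HCC 3, HCC 4 and HCC 5 lay above every normal liver, while HCC 2 lay below 3 of them. The mean was 12.08 ± 1.69 in the 6 HCC and 9.72 ± 1.40 in the 6 normal livers (SD), a difference of 2.36 ± 0.79 (SE, limma adjusted p = 0.0881). The call of Mt2 turned on single arrays and on a filter for dim probe sets. It passed without normal 1 (2.84, limma adjusted p = 0.0392), without HCC 2 (2.86, adjusted p = 0.0302) and when only probe sets with a mean intensity of at least 100 were tested (adjusted p = 0.0475), and with 1 of the other 10 arrays left out in turn it did not.

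The spread of both metallothioneins among animals was wide for this array. The SD of Mt1 was larger than that of 99.2% of all probe sets in HCC and of 99.9% in normal liver, and for Mt2 these shares were 99.4% and 99.8%. The median SD over all probe sets was 0.48 in HCC and 0.42 in normal liver. After each group's mean was removed, Mt1 and Mt2 had a Pearson correlation of 0.97 over the 12 arrays. Over the 27 other pairs of the 8 genes, by their brightest probe sets, it ran from -0.68 to 0.64. Mt2 and Mt1 lie side by side on chromosome 8, with no other gene between them in the RefSeq annotation. The suffix of the Mt1 probe set marks probes shared by several transcripts, so part of its signal may come from a similar transcript. These correlations describe 12 arrays that share a platform and a scaling.

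**Figure D2:**
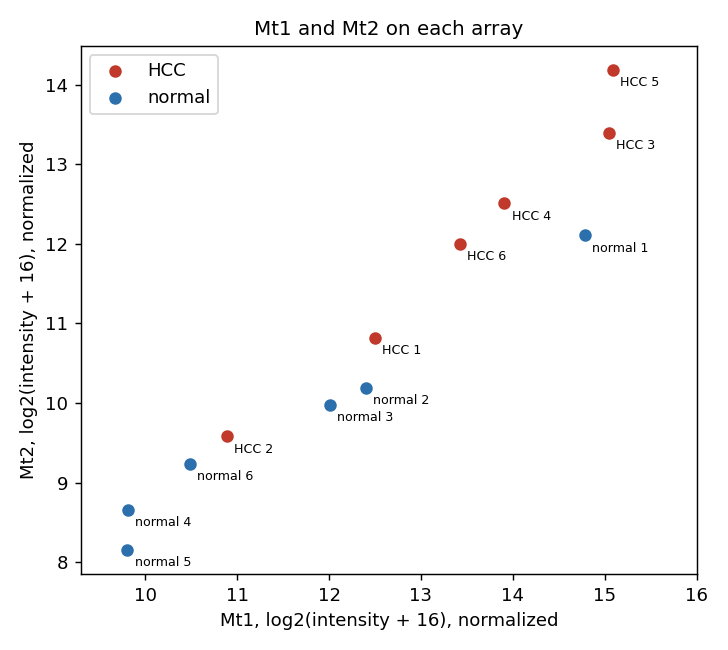
Level of Mt2 against that of Mt1, both as normalized log2(intensity + 16), with 1 point for each HCC and each normal liver. The points fall along a line, with HCC 3 and HCC 5 at the upper end, normal 4 and normal 5 at the lower end, and normal 1 among the tumours for Mt1.

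Whether both metallothioneins differed by the same amount was asked from their difference on each array, which cancels what they share. Mt2 minus Mt1 was -1.39 ± 0.28 in the 6 HCC and -1.83 ± 0.59 in the 6 normal livers (SD). It ran from -1.68 to -0.90 in HCC and from -2.68 to -1.15 in normal liver. The groups overlapped, and the difference of 0.44 gave an exact two-sided permutation p of 0.132, where 0.00216 is the smallest p that 6 against 6 allows. Among the arrays with Y-linked signal, the difference between HCC and normal liver was 3.01 for Mt1 and 3.24 for Mt2, and among those without it -0.19 for Mt1 and 0.62 for Mt2. None of these 4 values passed the test (limma adjusted p from 0.0996 to 0.954). The change of the difference with Y-linked signal, a test added after the data were seen, did not pass either (limma interaction, adjusted p = 0.727 for Mt1 and 0.777 for Mt2).

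A second probe set of Mt1, 1451612_at, was dim. It lay between 4.67 and 8.86 with a median of 6.42 in HCC and between 4.99 and 6.76 with a median of 6.03 in normal liver. HCC 5, the tumour with the highest Mt1 by the bright probe set, was also the highest here. The difference was 0.41 ± 0.61 (SE, limma adjusted p = 0.744), and its sign turned without HCC 5 (-0.08).

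By the rule for genes of like pattern, the 3 genes whose deviations from group means followed Mt1 most closely among 11383 brighter genes were Abcg5, a sterol exporter, Lbp, the acute-phase protein that binds bacterial lipopolysaccharide, and the stress granule protein gene G3bp1. Their Pearson correlations with Mt1 were 0.864, 0.860 and 0.856 over the 12 arrays. For Mt2, which had the largest SD of the 8 genes among HCC by brightest probe set, they were Lbp at 0.866, the RNA helicase gene Dhx16 at 0.8285 and Ubxn1 at 0.8276. Lbp correlated with Mt1 at 0.873 among the HCC alone and at 0.997 among the normal livers alone. These are the highest of many values and are given as a description.

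Mtf1, the zinc sensor that activates the metallothionein genes, did not pass the test in any of its 5 probe sets. The brightest, 1418333_at, ran from 7.55 to 8.61 with a median of 8.17 in HCC and from 8.25 to 8.90 with a median of 8.39 in normal liver. HCC 4 was the lowest array and normal 2 the highest, and the groups overlapped. The difference was -0.31 ± 0.21 (SE, limma adjusted p = 0.412). The other 4 differed by -0.08 to 0.35, with adjusted p-values from 0.579 to 0.919. Of them, 1452990_at and 1440414_at had group medians from 4.49 to 4.80, close to the floor.

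Slc39a4 codes for ZIP4, the zinc importer whose loss causes inherited zinc deficiency in people and which works mainly in the intestine. Its 1 probe set, 1451139_at, had log2 levels of 12.28, 12.03, 12.76, 11.66, 10.81 and 12.90 in HCC 1 to HCC 6. In normal 1 to normal 6 it was at 10.35, 10.70, 9.94, 10.07, 10.13 and 10.32. Every tumour lay above every normal liver, although HCC 5 exceeded the highest normal liver only narrowly. The mean was 12.07 ± 0.77 in the 6 HCC and 10.25 ± 0.27 in the 6 normal livers (SD), a rise of 1.82 ± 0.31 (SE, limma adjusted p = 0.00382).

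The rise of Slc39a4 had nearly the same size in arrays with Y-linked signal, at 1.83, and without it, at 1.81. With these fewer arrays the limma adjusted p was 0.0631 and 0.16. With 1 array left out in turn, the rise lay between 1.67 and 2.08 and kept its call (limma adjusted p up to 0.0115). Of 6 measured markers of intestine and exocrine pancreas, villin (Vil1) rose by 3.44, with overlap between the groups, and 5 did not pass, among them the intestinal regulator Cdx2 at 6.65 in HCC and 6.79 in normal liver. The summed intensity of these markers, on the log2 scale, ran from 12.32 to 14.74 in HCC and from 12.94 to 14.01 in normal liver, and their part in the rise was not tested.

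Slc39a8 and Slc39a14 code for ZIP8 and ZIP14, which carry manganese and zinc into cells, and neither passed the test. Slc39a8 (1416832_at) ran from 9.66 to 10.79 with a median of 10.49 in HCC and from 10.49 to 10.88 with a median of 10.64 in normal liver. HCC 6, the tumour with the highest stellate cell and fibroblast markers, was the lowest. The difference was -0.27 ± 0.19 (SE, limma adjusted p = 0.44), and it was -0.13 without HCC 6 (adjusted p = 0.702). The second probe set, 1448482_at, differed by -0.25 ± 0.22 (adjusted p = 0.534).

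The brightest probe set of Slc39a14, 1427035_at, ran from 11.05 to 11.62 with a median of 11.51 in HCC and from 10.88 to 11.30 with a median of 11.10 in normal liver. HCC 1, HCC 2, HCC 3 and HCC 5 lay above every normal liver, and HCC 4 and HCC 6 did not. The difference was 0.33 ± 0.15 (SE, limma adjusted p = 0.215). Its probe sets 1425649_at and 1438490_at differed by 0.44 ± 0.21 and 0.45 ± 0.20 (adjusted p = 0.227 and 0.19). The dim probe set 1457770_at was at -0.09 ± 0.44 (adjusted p = 0.933). In 2 of the 4 probe sets the p-value before adjustment was under 0.05 (0.0495 and 0.0396).

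**Figure D3:**
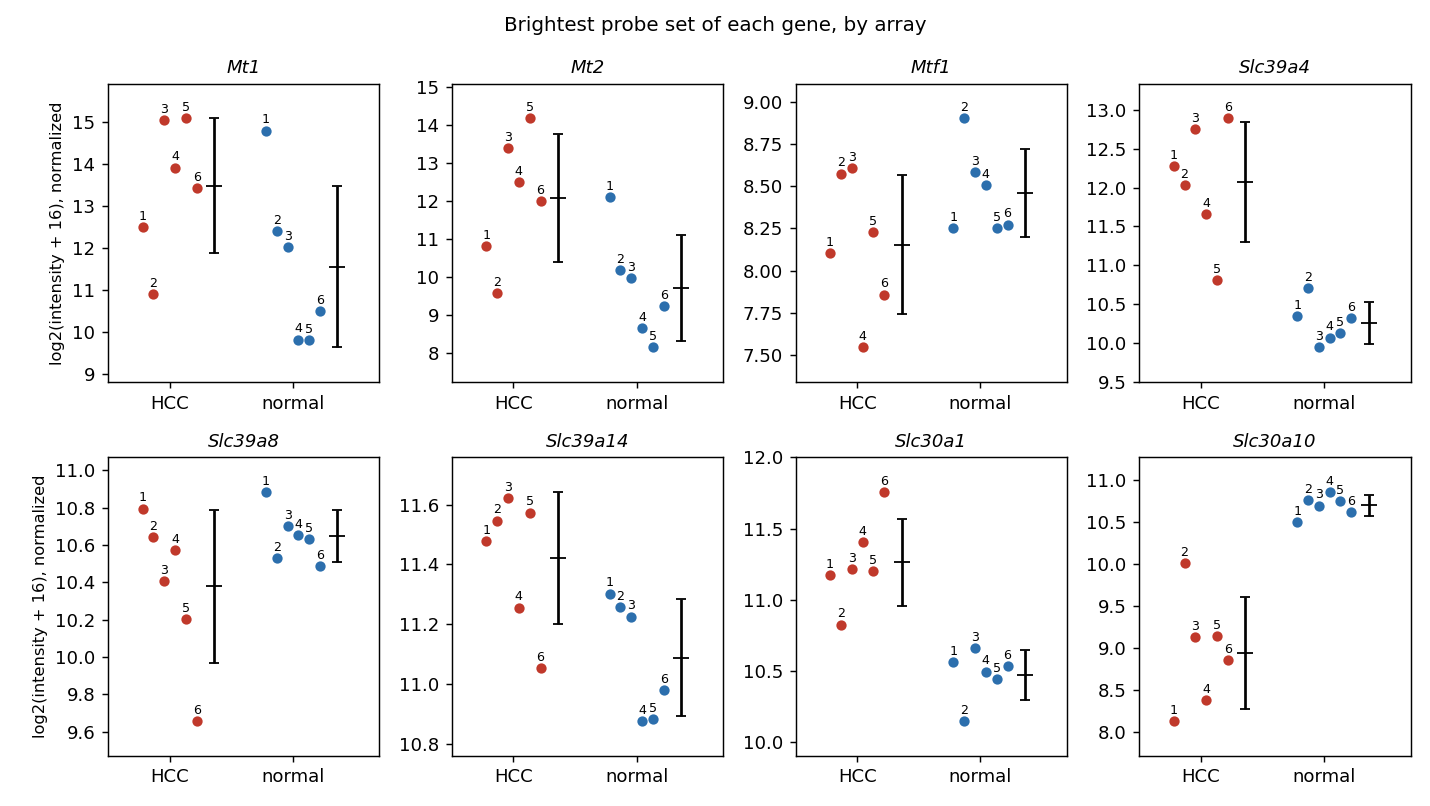
Level of the brightest probe set of each of the 8 genes, as normalized log2(intensity + 16), for HCC and normal liver. Points are arrays with their replicate number, and the bar is the mean with the SD of 6 arrays. Slc39a4 and Slc30a1 lie higher in all 6 HCC, Slc30a10 lies lower in all 6, and Mt1 and Mt2 spread widely in both groups.

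Slc30a1 codes for ZnT1, the exporter that releases zinc across the plasma membrane. Its brighter probe set, 1436164_at, was at log2 levels from 10.83 to 11.76 with a median of 11.21 in HCC and from 10.15 to 10.66 with a median of 10.51 in normal liver. All 6 HCC lay above all 6 normal livers. The mean was 11.26 ± 0.31 in the 6 HCC and 10.47 ± 0.17 in the 6 normal livers (SD), a rise of 0.79 ± 0.17 (SE, limma adjusted p = 0.0126). HCC 6 was the highest, and without it the rise was 0.70 (adjusted p = 0.0207).

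The dimmer probe set of Slc30a1, 1422786_at, did not show this rise. It ran from 8.27 to 9.09 in HCC and from 8.56 to 9.21 in normal liver, with a difference of -0.12 ± 0.18 (SE, limma adjusted p = 0.748) whose sign turned with the deposited scaling (0.01). Where in the transcript each probe set lies was not analysed here, so the rise rests on 1 of 2 probe sets. Among arrays with Y-linked signal the brighter probe set differed by 0.85 (limma adjusted p = 0.0946), and among those without it by 0.68 (adjusted p = 0.36).

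Slc30a10 codes for ZnT10, which despite its family exports manganese from hepatocytes, and whose loss in people leads to manganese overload. The brighter of its 2 probe sets, 1439934_at, had log2 levels of 8.13, 10.01, 9.13, 8.38, 9.14 and 8.86 in HCC 1 to HCC 6. In normal 1 to normal 6 it was at 10.50, 10.76, 10.69, 10.86, 10.75 and 10.62. All 6 HCC lay below all 6 normal livers, with HCC 2 nearest to them. The mean was 8.94 ± 0.66 in the 6 HCC and 10.70 ± 0.12 in the 6 normal livers (SD), and the level fell by 1.76 ± 0.27 (SE, limma adjusted p = 0.00181).

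The other probe set of Slc30a10, 1438751_at, also had HCC 2 as the highest tumour and HCC 1 and HCC 4 as the lowest pair, with HCC 4 below HCC 1 here. It ran from 7.65 to 9.51 in HCC and from 9.98 to 10.71 in normal liver, and fell by 1.95 ± 0.29 (SE, limma adjusted p = 0.00177). Normal livers differed little from each other by 1439934_at, since only 5.89% of all probe sets had a smaller SD among them, while among HCC 70.2% did. For 1438751_at these shares were 25.6% in normal liver and 75.8% in HCC. With 1 array left out in turn, the fall of 1439934_at lay between -1.97 and -1.60 and kept its call (limma adjusted p up to 0.00587). It was at -1.46 in the arrays with Y-linked signal (adjusted p = 0.0233) and -2.36 in those without it (adjusted p = 0.0947), and the difference between these did not pass (limma interaction, adjusted p = 0.681).

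The tumours differed in glutamine synthetase (Glul), a gene of pericentral hepatocytes and a target of beta-catenin, and their levels of Slc30a10 are set beside it. Glul was at 15.17, 15.10 and 14.62 in HCC 1, HCC 4 and HCC 6, which were the 3 tumours with the lowest Slc30a10 by 1439934_at. It was at 11.75, 11.40 and 12.03 in HCC 2, HCC 3 and HCC 5, which had the 3 highest levels among tumours. Normal livers had Glul from 13.29 to 14.33. The same split of tumours was seen in the brightest probe sets of other genes of the 8. Mtf1 (1418333_at) was at 7.55 to 8.10 in HCC 1, HCC 4 and HCC 6 and at 8.23 to 8.61 in the others. Slc39a14 (1427035_at) was at 11.05 to 11.48 against 11.55 to 11.62. For Mtf1 the split rests on this probe set alone, since in each of its other probe sets these tumours overlapped. The brightest probe sets of Mt1, Mt2, Slc39a4, Slc39a8 and Slc30a1 did not split so. The share of all probe sets that split these 6 tumours so is not given here. The number of genes that did is therefore not read as a result. HCC 1 and HCC 4 are also the tumours without Y-linked signal, and the order of Slc30a10 among 6 tumours was not tested.

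**Figure D4:**
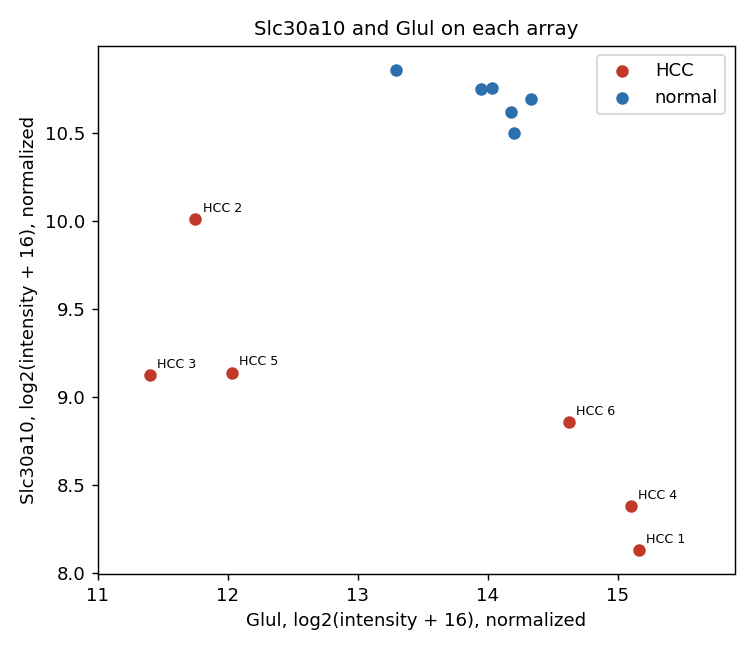
Level of Slc30a10 (1439934_at) against that of Glul, both as normalized log2(intensity + 16), with 1 point for each HCC and each normal liver. The 6 HCC lie below the normal livers in Slc30a10, and HCC 1, HCC 4 and HCC 6, on the right, lie lowest.

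Of the other genes of both transporter families, 2 passed the test. Each gene is represented below by its brightest probe set, and 10.8% of 18193 genes passed the test so represented, 5.27% higher and 5.49% lower. Of 11 further ZIP genes, 1 rose and 1 fell, with a median difference of 0.12. The rise was Slc39a6, an importer of the plasma membrane, by 1.06 ± 0.24 (SE, limma adjusted p = 0.0163), and all 6 HCC lay above all 6 normal livers. Slc39a2 fell by 1.25 ± 0.26 (SE, limma adjusted p = 0.0104), but its groups overlapped. It was dim, at 6.41 in HCC and 7.67 in normal liver, where the median level over all probe sets was 6.76. Of 8 further ZnT genes none passed the limma test, and none had an unadjusted p under 0.05. Their median difference was 0.20, and the smallest p belonged to Slc30a8, the exporter of insulin granules, at -0.56 ± 0.27 (adjusted p = 0.227). The metallothionein genes Mt3 and Mt4 did not pass (0 of 2 by limma, also at an unadjusted p of 0.05), with Mt3 at 5.57 in HCC and 6.73 in normal liver and an adjusted p of 0.235.

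**Figure D5:**
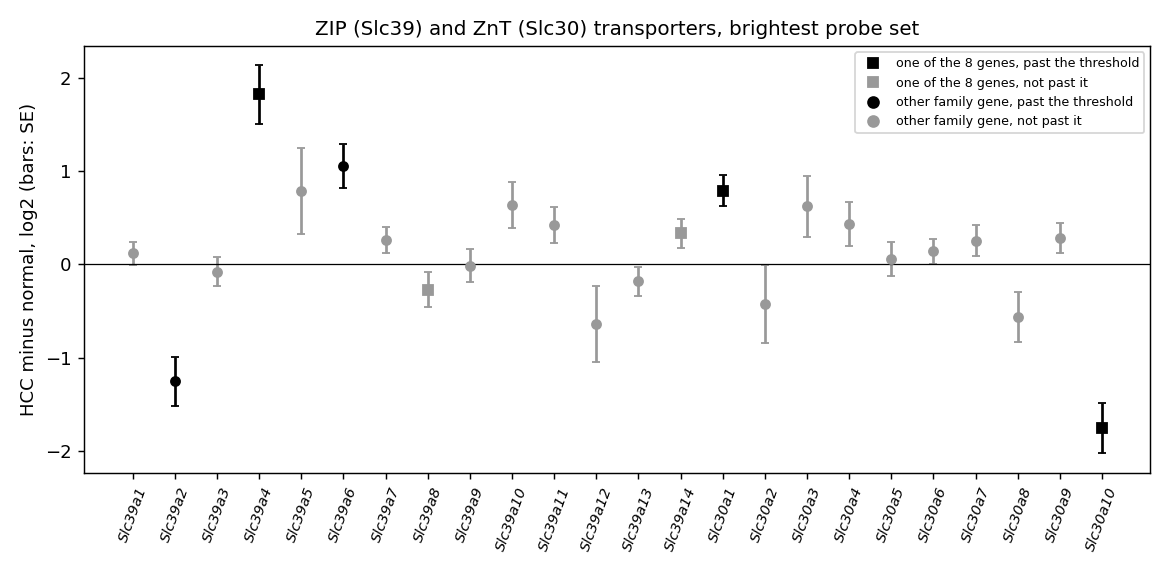
Difference between HCC and normal liver for the brightest probe set of each ZIP (Slc39) and ZnT (Slc30) gene, on the log2 scale, with the standard error as bars. Squares are among the 8 genes and circles are other family genes. Slc39a4, Slc39a6 and Slc30a1 stand above 0 and Slc39a2 and Slc30a10 below it in black, for an adjusted p under 0.05.

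Lists of genes linked to the same metals and to the inputs of metallothionein were counted in the same way. Of 5 further genes with known binding or control by MTF1, 1 fell. The hepcidin gene Hamp fell by 4.71 ± 0.71 (SE, limma adjusted p = 0.0018), and no gene of the list rose past the test. The limma p before adjustment was under 0.05 for 3 of the 5, namely Hamp and genes with a higher mean in HCC. Of 16 genes that carry or answer glucocorticoid and interleukin 6 signals, none passed the limma test and 6 had an unadjusted p under 0.05. Tat, a liver enzyme induced by glucocorticoids, came closest at -1.14 ± 0.33 (adjusted p = 0.0503), and the count was 1 without any of 6 single arrays (normal 1, normal 4, HCC 1, HCC 2, HCC 3 or HCC 5).

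Among 12 genes of copper handling 1 rose and 3 fell, and 7 had an unadjusted limma p under 0.05. Sco2, a copper chaperone of cytochrome oxidase, fell by 1.01 ± 0.17 (SE, limma adjusted p = 0.00382), the copper importer Slc31a1 fell by 1.02 ± 0.24 (adjusted p = 0.0225), and ceruloplasmin (Cp), the copper protein of plasma, rose by 0.58 ± 0.14 (adjusted p = 0.0242). Only 2 of the 12 passed without normal 2, normal 5 or normal 6. Of 7 measured genes of manganese and other divalent metals 1 fell, the manganese-dependent mitochondrial Sod2, by 0.83 ± 0.14 (adjusted p = 0.00267), and none rose. Of 9 measured zinc-binding liver proteins 2 fell and none rose, with the heme synthesis enzyme Alad at -1.23 ± 0.27 (adjusted p = 0.0137) and the carbonic anhydrase Car3 at -2.40 ± 0.63 (adjusted p = 0.0348). That count was 4 without HCC 5 and 1 without any of 7 single arrays (normal 2 to normal 6, HCC 1 or HCC 6).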

How the data were processed

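RNA of 6 HCC and 6 normal livers was hybridised to 12 Affymetrix arrays, 1 colour each. Per the labels' protocols, TRIzol extraction was followed by column clean-up with DNase, and 1 microgram of RNA went through one-cycle amplification and labelling. The authors deposited linear intensity values, scaled so that each array's 2% trimmed mean is 500.0. The method of probe summary was not given in the sources used here. Log2(intensity + 16) was quantile normalized and HCC was compared with normal liver by limma (version 3.58.1, R 4.3.3) over 45037 probe sets, without 64 control probe sets, by two-sided tests called at a Benjamini-Hochberg adjusted p under 0.05. Precision is limited by the number of arrays. Of these probe sets 34945 name 1 gene, 932 several and 9160 none in the platform annotation, and 120 of 126 list entries were measured. Both groups are numbered 1 to 6. The deviations of same-number arrays correlated from -0.0177 to 0.0636, and the fits therefore left the numbers unpaired.

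The genes, lists and rules were chosen with earlier results of these data known. Every probe set of the 8 genes was named. From each related list up to 3 genes past the test with the smallest adjusted p were named, or the gene with the smallest p. Genes of like pattern were the 3 with the highest correlation of deviations from group means. Signal of near-identical transcripts on 1 probe set cannot be separated. In simulated data for all 45037 probe sets, log2 changes of 0.5, 1, 2 and 4 given to 50 probe sets each were recovered in 0%, 24%, 78% and 96%, and 5 of 44837 unchanged probe sets were called. Far fewer probe sets were changed there than the 3751 called in the data. The adjustment was therefore stricter in the simulation, and these rates need not hold for the data. Alternatives were the deposited scaling, median centring, pseudocounts of 1 and 64, a filter on dim probe sets, 1 probe set a gene, a trended and robust variance, weights for arrays, a replicate block, each array left out, Y-linked level as a covariate or as a subset, and a threshold of 0.01. Figures used Python 3.11.15 and matplotlib 3.10.9.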

Additional observations from a re-analysis of the deposited data

Results flagged for a closer look

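The dim probe set 1457770_at of Slc39a14 was at 5.37 in HCC 4, far from the other HCC, which lay between 7.02 and 7.55. It was the only one of 40 groups of 6 values so far apart (gap over range 0.754), and chance alone marks about 1 in 20 groups. The 3 brighter probe sets of Slc39a14 did not set HCC 4 apart in this way.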

How the results depend on the processing

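The differences of the 19 probe sets were recomputed under 25 settings in 461 fits. In 432 the direction and the side of the threshold stayed, in 3 (all Mt2, given above) the test was newly passed, in 7 it was no longer passed, and in 19 the sign turned, never for a probe set past the test in all arrays. The 7 were Slc39a4 and Slc30a1 in both subsets by Y-linked signal, both probe sets of Slc30a10 without Y-linked signal, and Slc30a1 at a threshold of 0.01. The cause of the sign changes was not tested. Signs turned with the deposited scaling for Mtf1 1429170_a_at (0.0805), Slc39a14 1457770_at (0.0101) and Slc30a1 1422786_at (0.0147), with median centring for Mtf1 1429170_a_at (0.0128), and with a pseudocount of 1 for Mtf1 1452990_at (-0.0614). In the arrays with Y-linked signal Slc39a14 1457770_at turned (0.20), and in those without it Mt1 1422557_s_at (-0.19), Mt1 1451612_at (-0.44), Mtf1 1452990_at (-0.23) and Slc39a8 1448482_at (0.0211). With 1 array left out, Slc39a14 1457770_at lay between -0.40 and 0.21, Mtf1 1428979_at between -0.0897 and 0.22, Mtf1 1452990_at between -0.0785 and 0.21 and Mt1 1451612_at between -0.0782 and 0.76.

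Over all probe sets 1971 rose and 1780 fell. With 1 array left out these counts lay between 1380 and 2018 and between 1123 (without normal 5) and 1935, those of the 19 between 2 and 3 and at 2, and the Mt2 minus Mt1 difference between 0.26 and 0.57 (exact permutation p from 0.0584 to 0.273). With the replicate number as a block 1159 rose and 926 fell, and no call among the 19 changed. With 1 probe set a gene 1179 rose, and 1 fall among the 8 genes was left by construction. The arrays with Y-linked signal gave 818 rises and 661 falls (0 rises among the 19), those without it 8 and 4 (0 and 0 among the 19), from fewer arrays. At a threshold of 0.01 there were 788 and 555 (1 rise among the 19). Over all settings the copper count lay between 0 and 7, the glucocorticoid count between 0 and 5 and that of zinc-binding proteins between 0 and 4.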
